A study of Mus musculus with 9 samples.

Results

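The genes described here stood apart from sham in the mouse kidney both 3 and 7 days after cisplatin. Kidneys of the C57BL/6 strain were sequenced as bulk RNA after 1 intraperitoneal injection of cisplatin at 20 mg/kg, with 3 libraries from day 3, 3 from day 7 and 3 from sham animals that received saline. Strain and tissue are the same in all 9 libraries, and the labels give no sex, age or time of collection for the sham animals, so these could not be set beside any difference between the groups. A displacement is the mean log2(FPKM + 1) of a cisplatin group minus that of the sham group, where FPKM is fragments per kilobase of transcript, scaled to all mapped fragments of the library. A gene was taken if it reached 1 FPKM in at least 3 of the 9 libraries and was displaced by at least 1 in the same direction on both days. Ccng1, Hnrnpa3, the Nat8 genes, genes whose symbols start with Cyp, Slc, Col, mt- or Gm or end in Rik, and genes on the X or Y chromosome were left out.

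The rule found 219 genes out of 13718 that passed the expression filter. Of these, 163 were higher than sham on both days and 56 were lower. Before the exclusions by symbol and chromosome 288 genes were past the threshold, so 69 were dropped, 20 of them as X or Y genes. The genes were chosen by both cisplatin displacements, which share the sham libraries, so the displacements below are descriptions and carry no test. Over all filtered genes, 1.56% were at least 1 higher on both days and 0.539% at least 1 lower, and at day 7 alone the shares were 3.38% and 1.75%. By contrast 1781 genes were higher at day 3 only and 932 were lower at day 3 only, with 155 higher and 97 lower at day 7 only.

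Cisplatin is taken up by the proximal tubule, where it crosslinks DNA and kills or dedifferentiates epithelial cells. Surviving cells then lose and later regain the enzymes and carriers of the mature tubule, while p53 targets, injury markers and inflammatory genes come and go. FPKM is scaled within each library, and the yield of fragments from a transcript can also depend on its base composition and length, which is why transcript GC content (the share of G and C bases) is set beside the displacements here.

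The 219 genes formed sets of opposite base composition. The median GC content of the longest annotated transcript was 41.7% in the genes that were higher, 56.6% in those that were lower and 49.8% over all filtered genes. Of the 163 higher genes 152 lay below the median of all genes, and of the 56 lower genes 53 lay above it. The higher genes above it were Rpl29, H19, Hpx, Tmem129, Timm29, Fam168b, Ahsg, Fn1, Moap1, Igf2 and Fam83h, and the lower genes below it were Igkc, Azgp1 and Ncoa4. Length differed as well, with median longest transcripts of 4352 bases in the higher genes, 1407 bases in the lower genes and 2918 bases over all. Genes displaced at day 3 only were closer to the middle, at 48.2% GC for the higher and 52.5% for the lower, whereas those displaced at day 7 only stood at 43.2% and 57.2%.

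**Figure D1:**
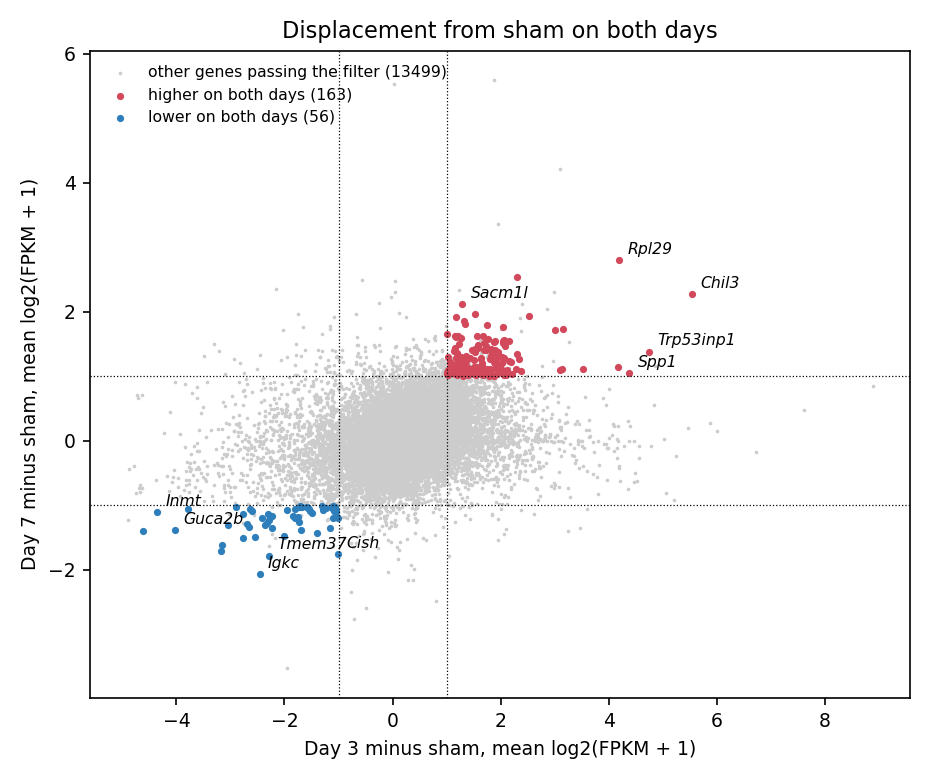
Displacement at day 3 (x axis) against displacement at day 7 (y axis), both in log2(FPKM + 1), for every gene that passed the filter. Dotted lines mark 1 and -1. The 163 higher genes (red) and 56 lower genes (blue) lie in the upper right and lower left corners, many of them just past the day 7 line, and grey points in those corners are genes dropped by symbol or chromosome.

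The promoters did not follow the transcripts in base composition. RefSeq promoters (GRCm38.p6, the 250 bases before the first listed start) could be matched for 171 of the 219 genes, 129 higher and 42 lower. Their median GC content was 64.8% for the higher genes, 58.0% for the lower genes and 59.6% over the 9564 filtered genes with an entry, which is the reverse of the order seen in transcripts. The promoters of Adam10 and Actr2 (higher) and of Dhrs3 (lower) are printed 5′ to 3′ as examples, each from a gene among the 15 largest displacements without overlap in its direction. Single genes departed from the medians, with 65.2% GC in the promoter of Tmem37 (lower) and 58.0% in that of Ranbp2 (higher). Capitals mark CCAAT and GGGCGG on either strand. The Adam10 window is chr9:70678732-70678981 on the plus strand, with 74.0% GC against 42.1% in the transcript. The Actr2 window is chr11:20112952-20113201 on the minus strand, with 70.0% GC against 40.3%. The Dhrs3 window is chr4:144892577-144892826 on the plus strand, with 61.6% GC against 52.4%.
Adam10: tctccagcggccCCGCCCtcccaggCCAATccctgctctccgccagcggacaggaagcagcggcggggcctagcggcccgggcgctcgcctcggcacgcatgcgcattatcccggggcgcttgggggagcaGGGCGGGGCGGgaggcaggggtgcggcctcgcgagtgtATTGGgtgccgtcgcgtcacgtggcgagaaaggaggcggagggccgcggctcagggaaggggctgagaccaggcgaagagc
Actr2: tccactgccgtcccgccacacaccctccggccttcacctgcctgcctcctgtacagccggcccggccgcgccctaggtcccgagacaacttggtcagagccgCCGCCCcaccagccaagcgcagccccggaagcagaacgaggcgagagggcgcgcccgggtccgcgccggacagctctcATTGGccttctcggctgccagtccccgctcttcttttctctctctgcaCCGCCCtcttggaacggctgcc
Dhrs3: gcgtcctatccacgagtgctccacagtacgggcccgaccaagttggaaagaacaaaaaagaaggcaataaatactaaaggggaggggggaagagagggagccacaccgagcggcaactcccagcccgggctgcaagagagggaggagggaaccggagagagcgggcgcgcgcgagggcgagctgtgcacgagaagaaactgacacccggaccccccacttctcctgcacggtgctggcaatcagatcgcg

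The first of these windows holds 2 CCAAT and 3 GGGCGG matches, the second 1 and 2, and the third none of either. GGGCGG, the core of an Sp1 site, occurred in 68.2% of the promoters of the higher genes, 57.1% of those of the lower genes and 59.0% of all. CCAAT, the core bound by NF-Y, occurred in 34.1%, 35.7% and 35.9%. CACGTG, an E-box, occurred in 14%, 4.76% and 8.48%, with 2 of 42 promoters in the lower genes. TGACNNNGC, the core of the antioxidant response element bound by NRF2, occurred in 18.6%, 7.14% and 12.2%, with 3 of 42 in the lower genes. Less common in the higher than in the lower genes were TGANTCA (3.88%, 9.52% and 4.44%), TATAAA (5.43%, 9.52% and 6.65%) and AGGTCA (6.98%, 9.52% and 10.9%). TGACGTCA occurred in 3.10%, 2.38% and 2.61%, TTANGTAA in 1.55%, 0% and 1.23%, and a further motif in no member's promoter. The part of promoter GC content in these shares was not tested. Motifs were searched on both strands, and these shares are descriptions of letters in the window and not of binding.

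The level of expression differed between the directions too. The higher genes were weakly expressed in sham, with medians of 2.90 FPKM in sham, 9.68 FPKM at day 3 and 7.83 FPKM at day 7. The lower genes were abundant in the normal kidney, with medians of 39.5, 10.1 and 16 FPKM. Of the higher genes 109 were at 1 FPKM or more in all 3 sham libraries, 17 were below it in all 3, and 1, Nanp, was listed at 0 in all 3. All 56 lower genes reached 1 FPKM in every sham library. A fall of at least 1 needs a sham mean of at least 1 in log2(FPKM + 1). A higher gene could pass the filter through its cisplatin libraries alone. The difference in sham level between the directions was thus in part set by the rule. The libraries of the 2 cisplatin groups did not overlap with sham in 144 of the 163 higher genes, against 18.3% of all filtered genes, and in 43 of the 56 lower genes, against 8.11%, but the rule used these same libraries and nothing is read from those counts.

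Size was modest at day 7. The median displacement of the higher genes was 1.55 at day 3, with a range of 1.0 to 5.54, and 1.16 at day 7, with a range of 1.0 to 2.80. For the lower genes the medians were -1.81 and -1.15, with ranges of -4.61 to -1.01 and -2.06 to -1.01. In 58 higher and 26 lower genes the smaller of the 2 displacements was under 1.1 in size, and in 19 and 5 it was at least 1.5. Just inside the line on the higher side were Zranb2, CT030661.1 and Usp46 at 1.003, and just outside were Plagl2, Twf1 and Ppp2r2a at 0.999. On the lower side Cda, Clic3 and Nudt8 lay inside at 1.007, 1.008 and 1.009, and AC109619.1, Gpx4 and Prss8 outside at 0.998, 0.989 and 0.987. A further 94 genes on the higher side and 37 on the lower side lay between 0.9 and 1, so the edge of the set runs through a dense stretch of genes.

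The balance of directions depended on how libraries were scaled. On the deposited scale the median of all filtered genes lay 0.25 above sham at day 3 and 0.06 above it at day 7. After median-of-ratios scaling those medians were 0.03 and -0.02, and the same rule found 96 genes higher and 115 lower in place of 163 and 56. The 96 were all among the 163, and all 56 lower genes stayed past the threshold beside 59 others. In 162 of the 163 higher genes and in all 56 lower genes the sign on both days was the same on every scale, after correction for GC content and with each library left out. The exception was Timm29, described below.

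Ppp4r2, Adam10 and Erbin were among the 15 higher genes with the largest displacements and no overlap with sham. Ppp4r2, a regulatory subunit of protein phosphatase 4, which acts in DNA damage signalling, measured 1.37, 1.14 and 3.47 FPKM in sham. It measured 15.9, 14.5 and 15.7 FPKM at day 3 and 10.4, 10.8 and 8.52 FPKM at day 7, displacements of 2.53 and 1.94. All 6 cisplatin libraries lay well above all 3 sham libraries. Adam10, the membrane protease that sheds Notch, E-cadherin and growth factor precursors, measured 5.72, 1.76 and 3.33 FPKM in sham, 22.2, 14.3 and 15.2 FPKM at day 3 and 13.4, 14.2 and 13.7 FPKM at day 7. Its displacements were 2.05 and 1.77, again with no overlap. Erbin, a scaffold that binds the ERBB2 receptor at the basolateral membrane, stood at 5.52, 3.29 and 5.05 FPKM in sham, 25.7, 19.4 and 11.2 FPKM at day 3 and 18.9, 14.7 and 13.3 FPKM at day 7.

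The adhesion, matrix and surface receptor genes (a grouping by hand, as all groups here, made after the members were known) were 9 in number. Tgfbr1, the type I receptor for TGF-β, measured 0.37, 4.25 and 4.30 FPKM in sham, 11.5, 10.5 and 12.3 FPKM at day 3 and 7.97, 10.3 and 8.16 FPKM at day 7. Its displacements of 1.88 and 1.53 leaned on the low sham replicate 1, and the smaller was 0.89 without it. Fn1, fibronectin, measured 0.64, 1.78 and 1.91 FPKM in sham, 2.85, 6.54 and 18.2 FPKM at day 3 and 4.38, 5.49 and 2.89 FPKM at day 7. The other members were Itgav and Itga6 (integrin α chains), Sema3c (a secreted semaphorin), Adamts1 (a matrix protease) and Spp1 (osteopontin). Itgav at day 7 rested on replicate 2 at 13.0 FPKM, against 1.29 and 1.61 FPKM in the others, and its smaller displacement without that library was 0.63. Markers of fibroblasts and matrix summed to 203 to 233 FPKM in sham, 397 to 925 FPKM at day 3 and 139 to 321 FPKM at day 7. In bulk tissue a change in how many cells of a type are present and a change in RNA per cell cannot be told apart.

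The cytoskeleton genes were 8 in number. Actr2, a subunit of the Arp2/3 complex that nucleates branched actin, measured 10.2, 9.12 and 10.3 FPKM in sham, 54.2, 44.1 and 44.6 FPKM at day 3 and 28.6, 34.4 and 29.3 FPKM at day 7. The groups were tight and separate, with displacements of 2.16 and 1.55. Arpc5, another subunit of that complex, had displacements of 2.03 and 1.21, and Capza2, an actin capping subunit, 1.68 and 1.12. Kif5b, a kinesin heavy chain, measured 4.48, 4.38 and 4.83 FPKM in sham, 16.7, 17.0 and 17.4 FPKM at day 3 and 13.7, 14.6 and 12.7 FPKM at day 7. The septin Sept2 was carried by 1 library a day, at 16.5 FPKM in day 3 replicate 1 and 7.03 FPKM in day 7 replicate 3, with 0.32 to 1.19 FPKM in the other 7 libraries.

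**Figure D2:**
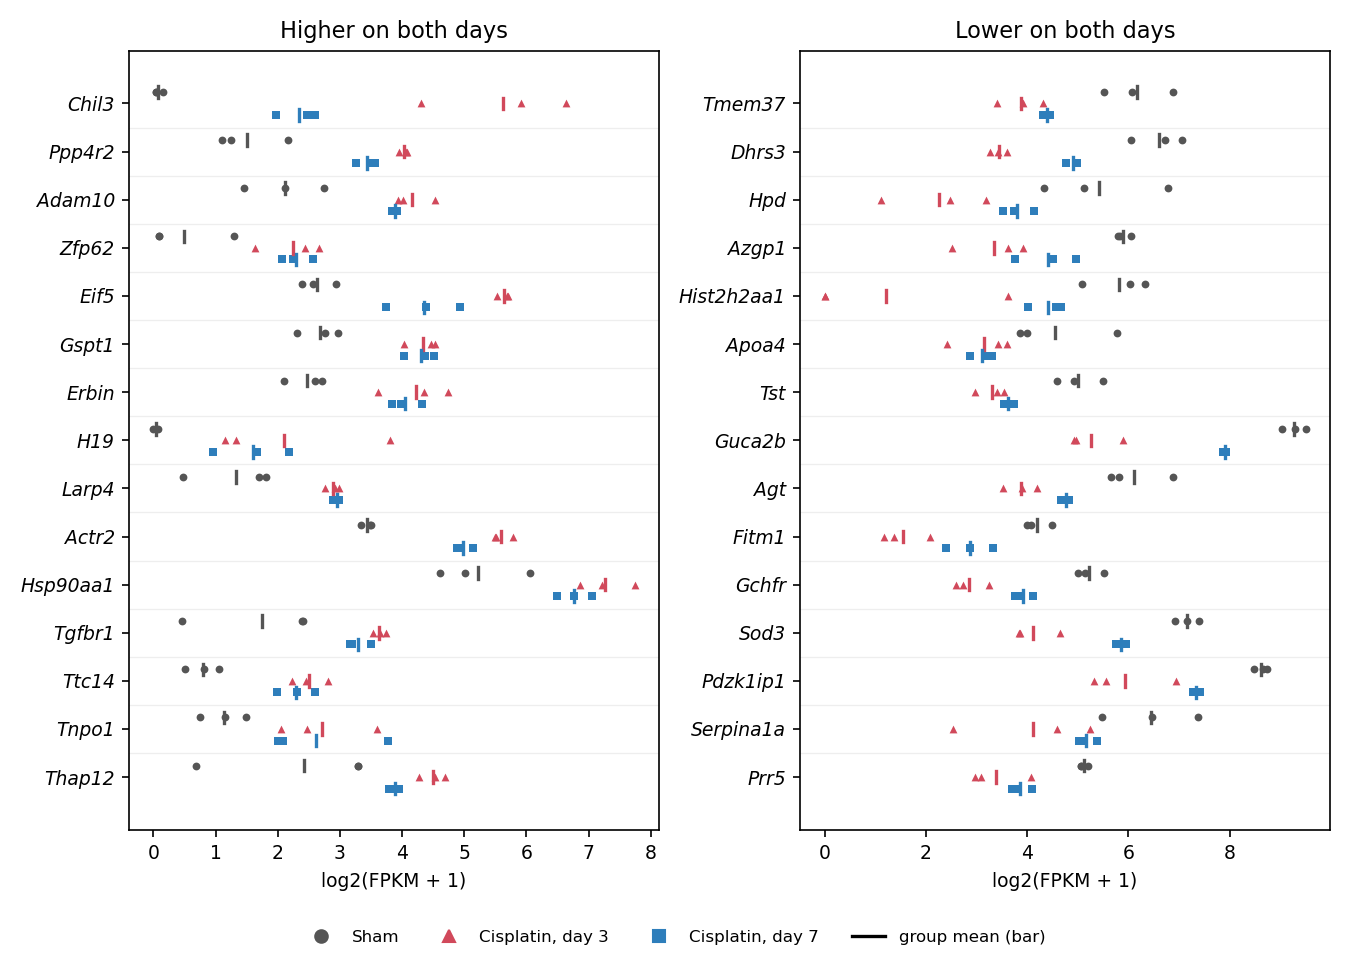
Level in log2(FPKM + 1) (x axis) of the 15 genes with the largest smaller displacement in each direction, among those with no overlap between sham and either cisplatin group. Igkc, an immunoglobulin segment, was left out of this ranking. Each point is 1 library and each bar a group mean of 3 libraries. Higher genes are tightly grouped at day 7 in most rows, and the day 7 points of Guca2b, Sod3 and Dhrs3 sit between those of day 3 and sham.

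Translation factors were the next group, with 10 genes. Eif5, which triggers GTP hydrolysis in the initiation complex, measured 4.22, 4.91 and 6.70 FPKM in sham, 45.1, 51.1 and 50.4 FPKM at day 3 and 12.3, 19.8 and 29.4 FPKM at day 7. Gspt1, the release factor eRF3a, measured 3.96, 5.75 and 6.81 FPKM in sham, 21.2, 22.0 and 15.4 FPKM at day 3 and 19.8, 15.4 and 21.9 FPKM at day 7. Gspt1 stood at overlapping levels on the 2 cisplatin days, with displacements of 1.67 and 1.63. Larp4, which binds poly(A) tails, had displacements of 1.56 and 1.63, Eif3a, the largest subunit of the initiation factor eIF3, 1.6 and 1.11, and Eif2ak2, the double-stranded RNA kinase PKR, 2.07 and 1.04.

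The 15 genes of RNA processing, export and decay moved by similar amounts, from 1.0 to 1.83 at day 3 and 1.02 to 1.31 at day 7. Hnrnpu, a nuclear scaffold protein that binds RNA, measured 11.7, 11.4 and 11.4 FPKM in sham, 36.4, 37.5 and 34.2 FPKM at day 3 and 24.5, 29.3 and 26.7 FPKM at day 7. Ssb, the La protein that binds the 3′ ends of RNA polymerase III transcripts, measured 14.9, 12.1 and 11.9 FPKM in sham, 48.2, 52.6 and 44.8 FPKM at day 3 and 33.5, 39.0 and 28.8 FPKM at day 7. These were among the most even profiles in the set. A separate list of 32 splicing factors held 1 member, Hnrnpu. Of that list 14 genes were at least 1 higher at day 3, against 17.7% of all genes, and 2 at day 7, against 3.38%. The median displacement of that list was 0.92 at day 3 and 0.54 at day 7, against 0.25 and 0.06 over all genes.

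Nuclear transport contributed Tnpo1, Ranbp2, Ipo7, Xpo1 and Kpna2. Ranbp2, the nucleoporin of the cytoplasmic filaments, measured 2.53, 2.15 and 2.43 FPKM in sham, 9.74, 8.99 and 8.43 FPKM at day 3 and 7.60, 9.08 and 7.85 FPKM at day 7. Tnpo1, an import receptor, was less even, with 11.1 FPKM in day 3 replicate 3 and 12.6 FPKM in day 7 replicate 2 against 2.99 to 4.56 FPKM in the other cisplatin libraries. Xpo1, the main export receptor for proteins, had displacements of 1.33 and 1.12. The ubiquitin and proteasome genes were 12 in number, with displacements of 1.0 to 1.91 at day 3 and 1.03 to 1.66 at day 7. Nedd4, a ubiquitin ligase for membrane proteins, measured 2.57, 2.52 and 3.66 FPKM in sham, 8.78, 5.88 and 8.36 FPKM at day 3 and 8.85, 10.2 and 8.47 FPKM at day 7.

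Membrane traffic held 15 genes. Sacm1l, a phosphatidylinositol 4-phosphate phosphatase of the endoplasmic reticulum, measured 1.90, 2.04 and 2.66 FPKM in sham, 9.33, 4.83 and 6.83 FPKM at day 3 and 11.3, 13.9 and 13.4 FPKM at day 7. Its level thus went further from sham with time. Cltc, the clathrin heavy chain, measured 13.9, 17.1 and 12.5 FPKM in sham, 41.9, 28.6 and 30.9 FPKM at day 3 and 36.9, 43.2 and 42.9 FPKM at day 7. Tfrc, the transferrin receptor, measured 3.60, 6.05 and 4.18 FPKM in sham, 9.99, 13.8 and 11.8 FPKM at day 3 and 19.1, 10.6 and 19.8 FPKM at day 7. On the lower side Ncoa4, the receptor that delivers ferritin to lysosomes, measured 11.2, 9.63 and 9.78 FPKM in sham, 3.24, 4.37 and 5.16 FPKM at day 3 and 3.71, 4.37 and 3.65 FPKM at day 7. Tfrc and Ncoa4 thus lay on opposite sides of sham on both days. Their roles are in iron uptake and iron release.

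Transcription and chromatin was the largest named group among the higher genes, with 28. Hif1a, the oxygen-regulated subunit of HIF-1, measured 7.5, 4.94 and 4.62 FPKM in sham, 26.2, 26.9 and 24.7 FPKM at day 3 and 17.5, 15.7 and 12.8 FPKM at day 7. Nfat5, the factor of the response to hypertonicity, measured 1.62, 1.03 and 0.87 FPKM in sham, 3.79, 8.93 and 2.42 FPKM at day 3 and 7.03, 7.35 and 5.35 FPKM at day 7. Top1, DNA topoisomerase I, had displacements of 1.22 and 1.26. The zinc finger genes Zfp942, Zfp943 and Zfp946 lie with CT030661.1 between 21926960 and 22456689 on chromosome 17 (GRCm38). Their displacements ran from 1.14 to 1.87 at day 3 and from 1.0 to 1.29 at day 7. Zinc finger genes of such clusters are close relatives, and reads could be split among them in the authors' quantification.

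The p53 targets were mostly displaced at day 3 and not at day 7. Of 39 filtered genes on a list of p53 targets, 29 were at least 1 higher at day 3, against 17.7% of all genes, and 3 at day 7, against 3.38%. Trp53inp1 and Pmaip1 were members, 2 of 39 against 1.56% of all genes past 1 on both days, and Ccng1, at 3.27 and 1.53, was left out by the rule. Dram1, not on that list but grouped by hand with the p53 response, was a member at 1.35 and 1.31. Trp53inp1, which promotes p53 phosphorylation and autophagy, measured 2.36, 1.52 and 2.36 FPKM in sham, 86.3, 85.6 and 71.7 FPKM at day 3 and 5.56, 9.73 and 6.06 FPKM at day 7. Pmaip1, the BH3-only protein Noxa, measured 1.55, 1.65 and 2.39 FPKM in sham, 55.4, 25.8 and 87.0 FPKM at day 3 and 4.13, 8.09 and 4.36 FPKM at day 7. For both the day 7 libraries still lay above every sham library, by a small part of the day 3 difference. Without day 7 replicate 2 the smaller displacement of Pmaip1 was 0.88. The same library held the highest day 7 value of Rrm2, the ribonucleotide reductase subunit, at 7.28 FPKM against 1.97 and 2.59 FPKM, and of Spp1, at 1810 FPKM against 552 and 576 FPKM. Of 42 filtered genes on a list of tubule injury and repair, 36 were at least 1 higher at day 3 and 1, Spp1, at day 7. Without that library Spp1 was displaced by 0.49 at day 7.

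Chil3, a chitinase-like lectin of alternatively activated macrophages and neutrophils, had the largest day 3 displacement of the set. It measured 0.11, 0.03 and 0.03 FPKM in sham, 18.7, 98.4 and 59.4 FPKM at day 3 and 5.07, 4.57 and 2.91 FPKM at day 7, displacements of 5.54 and 2.27. The macrophage and monocyte list, which includes Chil3, summed to 123 to 130 FPKM in sham, 209 to 399 FPKM at day 3 and 61.8 to 173 FPKM at day 7. Cd68, also on it, measured 95.15, 113.57 and 86.69 FPKM at day 3. Of its 16 filtered genes 5 were at least 1 higher at day 3 and 4 at least 1 lower, with a median of -0.07. The shares over all genes were 17.7% and 9.63%. Chil3 was the only member on that list. Neutrophil markers summed to 6.63 to 30.4 FPKM in sham, 449 to 868 FPKM at day 3 and 7.56 to 35.6 FPKM at day 7. Most of the day 3 sums came from 1 gene of that list, Lcn2, at 556, 743 and 381 FPKM. The part of cell number in the level of Chil3 was not tested. H19, an imprinted noncoding RNA, and its neighbour Igf2 were also members. H19 measured 0.03, 0.05 and 0.00 FPKM in sham, 1.51, 1.23 and 13.0 FPKM at day 3 and 3.52, 0.95 and 2.16 FPKM at day 7. Igf2, insulin-like growth factor 2, was at most 0.40 FPKM in sham, at 1.01, 0.05 and 4.91 FPKM at day 3 and at 3.38, 1.0 and 1.5 FPKM at day 7, and day 3 replicate 2 lay within the sham range.

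A group of 7 plasma proteins made by the liver, put together from the higher genes only, met the rule through uneven day 3 libraries. Other plasma proteins that the liver makes were members on the lower side. They were Serpina1a (-2.32 and -1.27), Agt (-2.24 and -1.35), Proc (-2.63 and -1.05) and Apoa4 (-1.39 and -1.43). Alb, serum albumin, measured 5.27, 3.33 and 3.87 FPKM in sham, 17.3, 118 and 0.46 FPKM at day 3 and 20.8, 18.2 and 17.7 FPKM at day 7. Hpx, hemopexin, measured 0.44, 0.12 and 0.25 FPKM in sham, 2.56, 23.7 and 0.19 FPKM at day 3 and 4.39, 2.09 and 2.06 FPKM at day 7. Serpina3k, Mup20, Mup3, Ahsg and Orm1 had the same order at day 3, with replicate 2 highest and replicate 3 lowest. At day 7 the 3 libraries of Alb, Hpx, Serpina3k and Ahsg were all above sham, whereas Mup20 was listed at 0 in replicate 1. In 1 of the 7, Orm1, neither cisplatin group overlapped with sham. Without day 3 replicate 2 the smaller displacement of Alb was 0.02. A list of 12 hepatocyte genes, added after these values were seen, summed to 104 to 183 FPKM in sham, 26.7 to 145 FPKM at day 3 and 72.0 to 101 FPKM at day 7. Genes of that list were mixed. Cps1 and Tat, hepatocyte enzymes, reached 2.31 and 3.91 FPKM in day 3 replicate 2 and were at most 0.59 FPKM elsewhere. Apoa1 was also highest in that library, at 32.4 FPKM. By contrast Ttr stood there at 24.9 FPKM against 82 to 87 FPKM in sham. Fgb was highest in day 3 replicate 1, at 19.15 FPKM against 10.37 FPKM in replicate 2. The part of liver RNA in the levels of the 7 genes was not tested.

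Other displacements turned on the sham libraries. Rpl29, a ribosomal protein of the large subunit, measured 2.50, 2.52 and 126 FPKM in sham, 195, 231 and 208 FPKM at day 3 and 74.5, 87.5 and 77.2 FPKM at day 7. It had the largest day 7 displacement of the set, 2.80, although sham replicate 3 lay above all 3 day 7 libraries. Rpl29 has many processed pseudogenes, so its FPKM is uncertain. Adnp, a homeobox protein of chromatin, measured 13.0, 0.00 and 0.12 FPKM in sham, 15, 13.4 and 7.22 FPKM at day 3 and 12.2, 13.9 and 14.3 FPKM at day 7, so that sham replicate 1 lay within the cisplatin range. Timm29, a subunit of the mitochondrial import machinery, measured 14.8, 16.8 and 0.00 FPKM in sham, 13.7, 12.5 and 14.9 FPKM at day 3 and 18.1, 19.1 and 20.7 FPKM at day 7. Without sham replicate 3 its displacement toward the higher side was -0.20, so 1 library decided its membership.

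**Figure D3:**
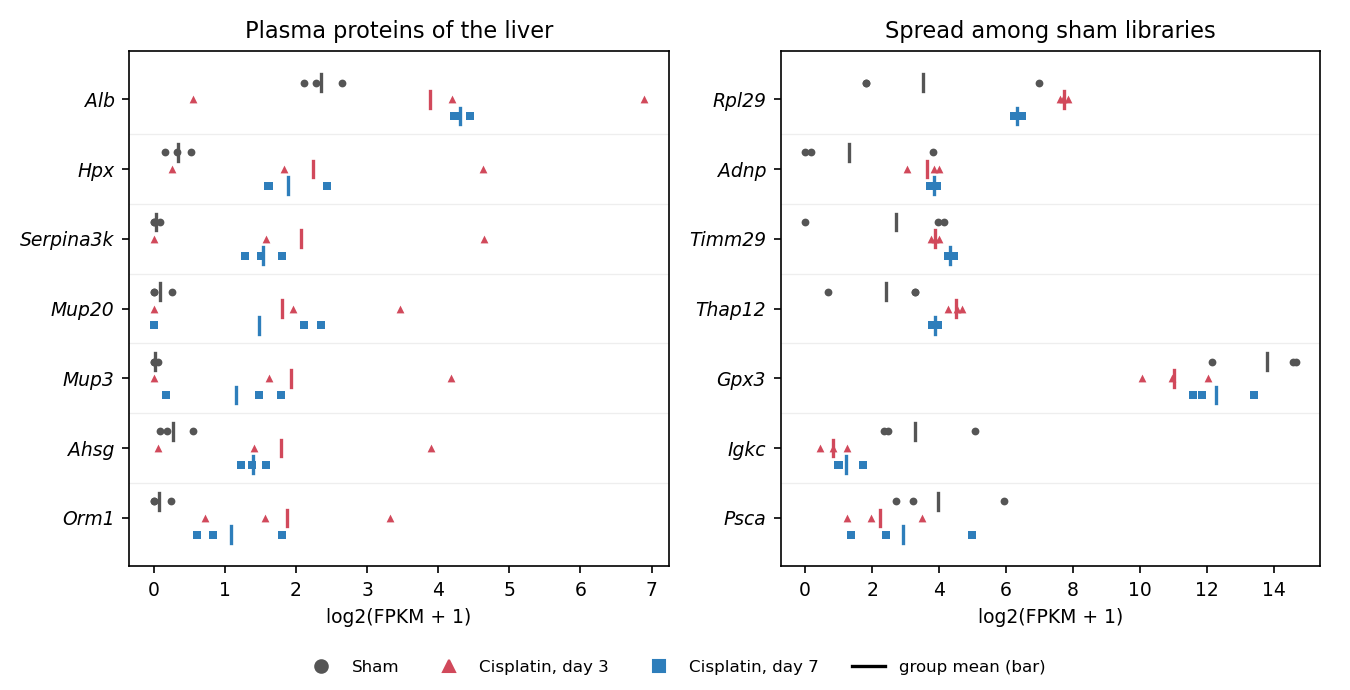
Level in log2(FPKM + 1) (x axis) of 7 liver plasma protein genes (left) and of 7 members with a wide spread among sham libraries (right). Each point is 1 library and each bar a group mean of 3 libraries. Day 3 replicate 2 carries the day 3 means on the left, with Alb at 118 FPKM, and a single sham library stands far from the other 2 in each row on the right.

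The genes that were lower were led by enzymes and secreted proteins of the tubule. Dhrs3, a retinaldehyde reductase, measured 132, 105 and 65.5 FPKM in sham, 11.2, 9.80 and 8.68 FPKM at day 3 and 30.2, 30.6 and 26.3 FPKM at day 7, displacements of -3.17 and -1.70. Tmem37, a membrane protein related to calcium channel γ subunits, measured 117, 66.6 and 45.1 FPKM in sham, 18.9, 14.2 and 9.57 FPKM at day 3 and 20.0, 18.8 and 20.9 FPKM at day 7. Every cisplatin library of both genes lay below every sham library. Guca2b, uroguanylin, a peptide that increases salt excretion, measured 725, 626 and 525 FPKM in sham, 58.9, 30.1 and 29.2 FPKM at day 3 and 242, 238 and 234 FPKM at day 7.

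Of 48 filtered genes on a list of proximal tubule metabolism, 42 were at least 1 lower at day 3, against 9.63% of all genes. At day 7 this held for 3, against 1.75%. The members were Napsa and Hpd. Napsa, the aspartic protease napsin A of proximal tubule lysosomes, measured 1120, 948 and 937 FPKM in sham, 101, 155 and 197 FPKM at day 3 and 475, 434 and 451 FPKM at day 7. Hpd, an enzyme of tyrosine breakdown, measured 109, 33.8 and 19.2 FPKM in sham, 1.17, 8.15 and 4.59 FPKM at day 3 and 16.6, 10.5 and 12.4 FPKM at day 7. Hpd in sham replicate 1 was far above the other sham libraries, and without it the smaller displacement was 0.93. Among the 11 tubule enzymes Inmt, which methylates indole amines, measured 220, 702 and 612 FPKM in sham, 4.99, 36.0 and 48.5 FPKM at day 3 and 272, 126 and 271 FPKM at day 7. Here 2 of the 3 day 7 libraries lay above the lowest sham library. The sodium phosphate carrier Slc34a1, a defining proximal tubule gene outside the set, measured 394, 988 and 1051 FPKM in sham. It ran from 9.83 to 45.4 FPKM at day 3 and 498 to 620 FPKM at day 7. The segment's own marker was thus within the sham range at day 7, but only through sham replicate 1, and lay below the other sham libraries.

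Oxidant handling held 3 lower genes. Sod3, extracellular superoxide dismutase, measured 120, 167 and 142 FPKM in sham, 24.2, 13.6 and 13.4 FPKM at day 3 and 61.3, 52.8 and 57.6 FPKM at day 7. Its groups did not overlap. Cyba, the p22phox subunit of NADPH oxidases, measured 272, 311 and 291 FPKM in sham, 94.3, 76.5 and 76.9 FPKM at day 3 and 147, 129 and 144 FPKM at day 7. Gpx3, the secreted glutathione peroxidase made in the proximal tubule, was the most abundant gene of the set. It measured 24354, 25778 and 4537 FPKM in sham, 1992, 1076 and 4165 FPKM at day 3 and 10909, 3051 and 3710 FPKM at day 7. Sham replicate 3 lay below day 7 replicate 1, so its day 7 groups overlapped.

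Distal nephron genes among those that were lower were Hsd11b2, Tmem213 and Clic3. Hsd11b2, the enzyme that keeps cortisol and corticosterone off the mineralocorticoid receptor, measured 138, 121 and 89.6 FPKM in sham, 28.3, 4.17 and 2.89 FPKM at day 3 and 62.0, 52.2 and 51.1 FPKM at day 7. Tmem213 had displacements of -1.68 and -1.02, and Clic3 of -1.72 and -1.01. Aqp2, the water channel of principal cells, which is not a member, ran from 55 to 215 FPKM in sham and 39.1 to 135 FPKM at day 7. The secreted genes also included Agt, angiotensinogen, at 117, 55.1 and 49.2 FPKM in sham, 17.3, 14 and 10.5 FPKM at day 3 and 27.1, 27.5 and 24.3 FPKM at day 7. Proc, the anticoagulant protein C, measured 62.9, 70.6 and 66.5 FPKM in sham, 12.5, 9.59 and 8.08 FPKM at day 3 and 35.0, 27.2 and 33.6 FPKM at day 7. Both were below every sham library on both days.

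The remaining lower genes included immune, vascular and respiratory chain genes. Igkc, the κ light chain constant region, had the lowest day 7 displacement of the set, -2.06. It measured 4.15, 4.52 and 32.4 FPKM in sham, 0.35, 1.39 and 0.77 FPKM at day 3 and 0.98, 1.0 and 2.29 FPKM at day 7, with the smaller displacement 1.18 in size without sham replicate 3. The B and plasma cell list, of whose 16 genes 5 passed the filter, summed to 28.1 to 68.9 FPKM in sham, 44.7 to 52.5 FPKM at day 3 and 23.2 to 28.2 FPKM at day 7. At day 3 Igkc, Ighm, Mzb1, Cd79a and Jchain of that list were each at most 1.97 FPKM. Most of the day 3 sums thus came from other genes of the list, and nothing is read from them about cell number. Ms4a1, a defining B cell gene, was at most 0.04 FPKM in all libraries. Ighm, also on that list, measured 3.60, 4.11 and 10.21 FPKM in sham, 0.22, 0.50 and 0.30 FPKM at day 3 and 2.57, 5.16 and 2.69 FPKM at day 7. Cd74, the invariant chain of MHC class II, measured 106, 113 and 275 FPKM in sham, 11.2, 20.4 and 29.7 FPKM at day 3 and 51.3, 155 and 47.3 FPKM at day 7, so day 7 replicate 2 lay within the sham range. Plvap, the diaphragm protein of fenestrated endothelium, had displacements of -1.08 and -1.09, and the endothelial list summed to 235 to 322 FPKM in sham, 236 to 421 FPKM at day 3 and 163 to 229 FPKM at day 7. Ndufs7, a core subunit of complex I, had displacements of -1.5 and -1.12. Of 39 nuclear genes of oxidative phosphorylation 11 were at least 1 lower at day 3, against 9.63% of all genes. At day 7 it was 1, Ndufs7, against 1.75%. The median of that list was -0.83 at day 3 and -0.04 at day 7. The rule held Ndufs7 at -1 or below on both days, so nothing is read from its distance to those medians. Ndufa12, another complex I gene of the set but not on that list, had displacements of -1.23 and -1.04.

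The course from day 3 to day 7 is described from the same libraries that chose the members. Only genes still past 1 at day 7 could be members, which bounds how far any of them could have returned. Where single genes are said to pass the threshold of day 7 against day 3, this is a description and supports nothing by itself. In the limma fit of day 7 against day 3 over all 13718 genes, with Benjamini-Hochberg adjustment at 0.05, 21.7% of all genes were higher at day 7 and 33.7% were lower. By that threshold 49 of the 163 higher genes (30.1%) were lower at day 7 than at day 3, 2 were higher and 112 did not pass. Of the 56 lower genes 23 (41.1%) were higher at day 7 than at day 3 and 33 did not pass. Nothing is read from these counts about the members. The ratio of the day 7 to the day 3 displacement had a median of 0.81 in the higher genes and 0.62 in the lower genes. It was under 0.5 in 12 higher and 12 lower genes, between 0.5 and 1 in 116 and 35, and over 1 in 35 and 9.

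Sacm1l was further from sham at day 7 than at day 3, by 0.83 ± 0.20 (limma SE), and all its day 7 libraries lay above all its day 3 libraries.

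Among the higher genes the differences of day 7 minus day 3 were most negative in 4 genes already described, at -3.37 ± 0.20 (limma SE) in Trp53inp1, -3.33 ± 0.49 in Spp1, -3.27 ± 0.49 in Chil3 and -3.02 ± 0.40 in Pmaip1. Mapk6, the atypical kinase ERK3, followed at -2.41 ± 0.40 (limma SE), with 30.4, 34.4 and 35.3 FPKM at day 3, 5.55, 5.43 and 5.38 FPKM at day 7 and 3.69, 0.36 and 3.09 FPKM in sham. Its day 7 membership leaned on sham replicate 2, without which the smaller displacement was 0.56.

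Among the lower genes the differences were most positive in Inmt, at 3.25 ± 0.78 (limma SE), Hist2h2aa1, at 3.21 ± 0.87, Hsd11b2, at 2.74 ± 0.64, and Guca2b, at 2.64 ± 0.25. Hist2h2aa1, a histone H2A gene, has a near-identical neighbouring copy, so its level is uncertain, and it was listed at 0 in 2 of the 3 day 3 libraries. Cd74 differed by 1.87 ± 0.55 (limma SE), which became 1.33 without day 7 replicate 2. Sod3 differed by 1.74 ± 0.22 (limma SE), Napsa by 1.63 ± 0.22 and Proc by 1.59 ± 0.16. For these 3 genes day 7 lay between day 3 and sham, without overlap on either side.

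Transcript GC content was then set against the displacement of every gene, since the members were so unlike the rest in it. In bins of GC content the cisplatin libraries sloped more steeply than the sham libraries. The median gene under 40% GC was displaced by 0.70 at day 3 and 0.62 at day 7, and the median gene at 60% or more by -0.01 and -0.43. Medians of single sham libraries about the sham mean ran from -0.14 to 0.11 over all bins, and sham replicate 3 sloped in the direction of the cisplatin libraries, from -0.02 under 40% GC to -0.14 at 60% or more. All 6 cisplatin libraries showed the slope, so it was not a matter of 1 library. Under 40% GC 5.79% of genes were higher members and 0 of 777 were lower members, whereas at 60% or more 0.368% were higher and 1.47% were lower.

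**Figure D4:**
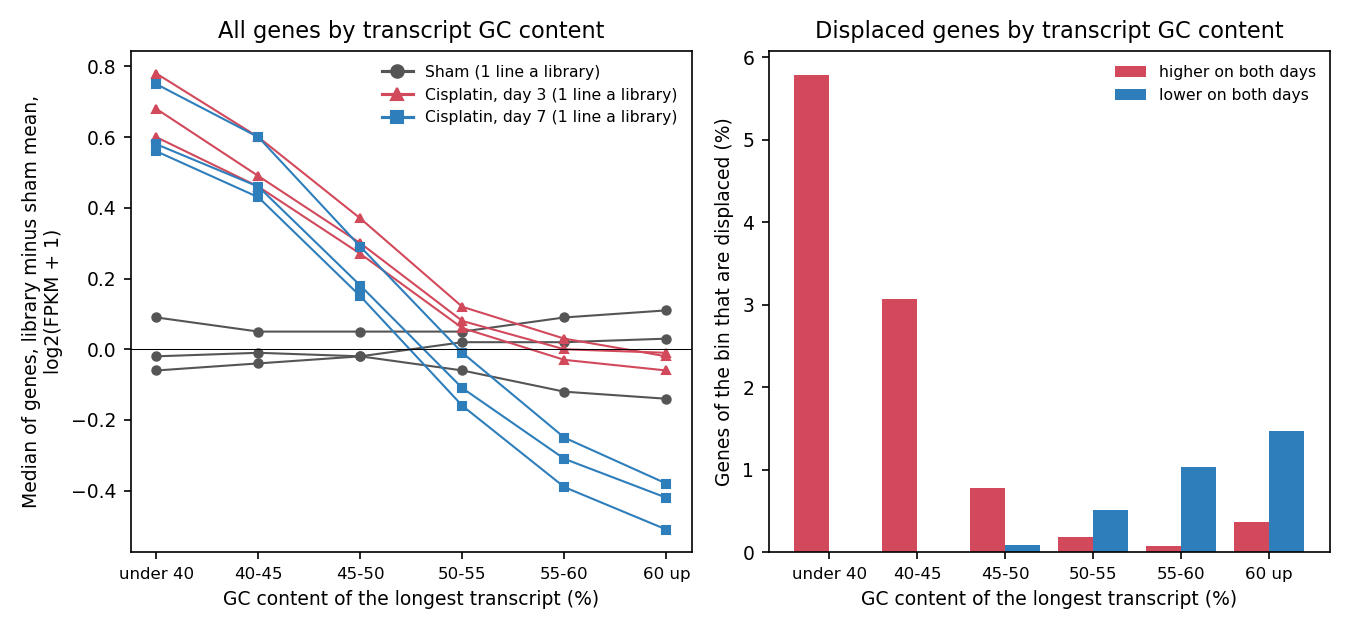
Left, the median over genes of the difference between each library and the sham mean in log2(FPKM + 1) (y axis) by bins of transcript GC content (x axis), with 1 line a library. Right, the percentage of genes in each bin that were members. The cisplatin lines fall from between 0.56 and 0.78 in the bin under 40%, and the share of higher genes falls from 5.79% while that of lower genes climbs to 1.47%.

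Each library's trend on GC content was removed with a natural spline of 5 degrees of freedom, and the rule was applied again. Of the 163 higher genes 43 still met it, and of the 56 lower genes 13. All 163 and all 56 kept their sign on both days. In 156 and 56 of them both displacements remained at least 0.5 in size. Members began at 1 or more, and the median displacements of the GC bins ran only from -0.43 to 0.70. The kept signs and sizes were thus largely set by the rule, and nothing is read from them. The medians after the correction were 1.26 and 0.80 for the higher genes at day 3 and day 7, and -1.62 and -0.83 for the lower genes. Whether the trend with GC content arose in the tissue or in the libraries was not tested, and a correction of this kind also removes any change in the tissue that follows GC content. With a spline on length removed as well, 37 higher and 10 lower genes still met the rule.

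The hand-made groups came through the correction unevenly. None of the 15 RNA processing genes, 15 membrane traffic genes or 5 nuclear transport genes still met the rule, and their median GC contents were 40.8%, 40.4% and 40.4%. Of the 9 adhesion, matrix and surface receptor genes 7 still met it, namely Adam10, Erbin, Tgfbr1, Itgav, Fn1, Itga6 and Adamts1, at a median of 43.3% for the group. With length removed as well this group kept 2, Adam10 and Fn1. Sacm1l no longer met it, at 0.94 at day 3 and 1.61 at day 7, and neither did Hif1a, at 1.70 and 0.82, or Hnrnpu, at 1.23 and 0.65. Among the lower genes Igkc, Tmem37, Dhrs3, Hpd, Gpx3, Azgp1, Tst, Guca2b, Sod3, Serpina1a, Klk1b5, Ncoa4 and the pseudogene Atp6v0c-ps2 still met it. Ncoa4, at 45.3% GC, moved from -1.11 and -1.19 to -1.28 and -1.47, further from sham.

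**Figure D5:**
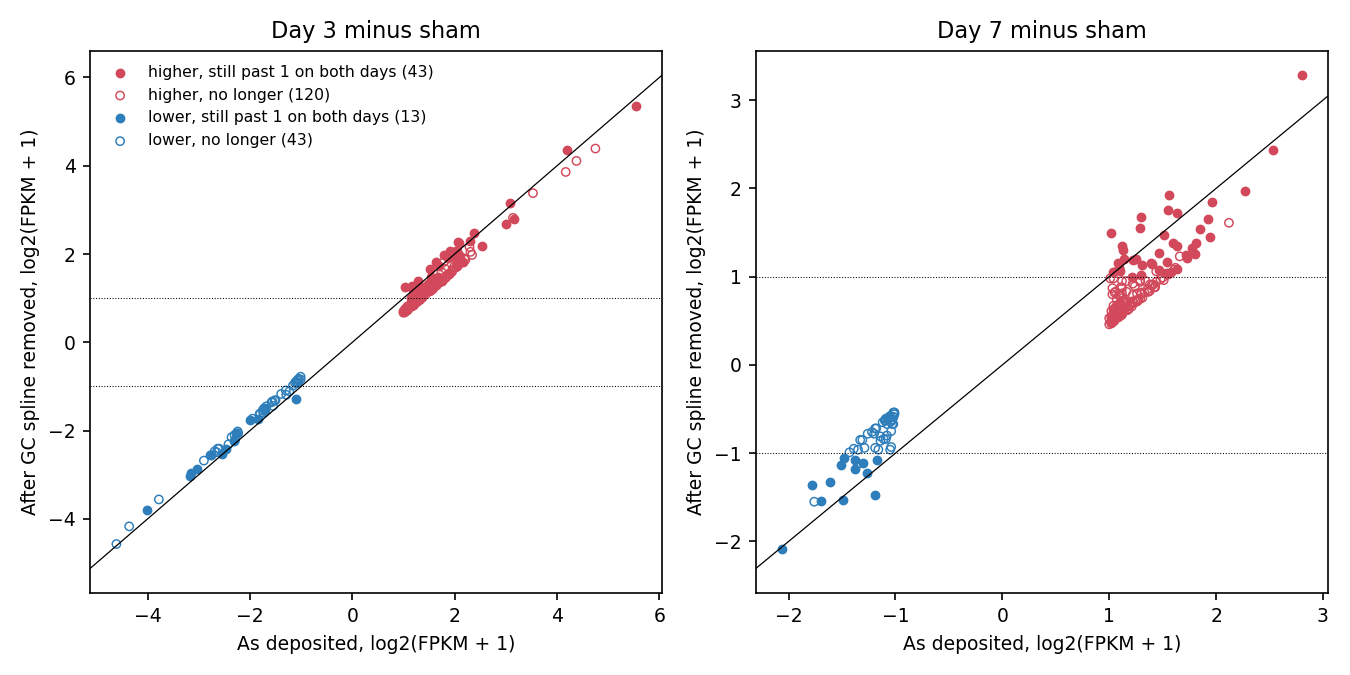
Displacement as deposited (x axis) against displacement after the GC spline was removed (y axis), in log2(FPKM + 1), for the 219 genes at day 3 (left) and day 7 (right). Filled points are the 43 higher and 13 lower genes that still met the rule, and the solid line marks equality. At day 7 most points lie nearer to 0 than the line, and none crosses 0.

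The set was also read with each of the 9 libraries left out in turn. In 64 of the 163 higher and 20 of the 56 lower genes the rule was met in all 9 cases. The rule found 127 to 204 higher and 53 to 90 lower genes over the 9 cases, and the 90 came without sham replicate 3. Of these, 21 higher and 9 lower genes also met it after the GC correction of all 9 libraries, and 16 and 7 of those with length removed as well. The 21 included Rpl29, Adnp, Chil3, Ppp4r2, Adam10, Zfp62, Smim15, Eif5, Gspt1, Erbin, H19, Larp4, Actr2, Hsp90aa1, Fam102b, Dram1, Tmem129, Ubxn2a, Ptprj and Nedd4. The 9 were Igkc, Tmem37, Dhrs3, Gpx3, Azgp1, Tst, Guca2b, Sod3 and Klk1b5. Rpl29, Adnp, Gpx3 and Igkc are on these lists despite the sham libraries described above, since the displacement without the library that mattered most was still 1.93, 1.64, 1.08 and 1.18 in size. Hsp90aa1, the inducible HSP90 chaperone, measured 31.3, 23.5 and 65.6 FPKM in sham, 115, 147 and 213 FPKM at day 3 and 108, 132 and 89.1 FPKM at day 7, and was the only member among 18 heat shock chaperones. Tmem129, a ubiquitin ligase of the endoplasmic reticulum with 53.8% GC, measured 2.10, 2.41 and 2.33 FPKM in sham, 10.01, 8.40 and 9.39 FPKM at day 3 and 5.67, 8.38 and 7.29 FPKM at day 7, and its displacements grew from 1.64 and 1.29 to 1.83 and 1.55 with the correction.

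Of 974 genes on 40 lists of pathways and cell types 818 passed the filter and 22 were members, 2.69% against 1.6% of all filtered genes. The lists of immediate early genes, NRF2 targets, interferon-stimulated genes (without Eif2ak2), neutrophils, cytosolic ribosomal proteins (without Rpl29), and cytokines and chemokines held none. At these sizes that is near the background for all of these lists. At day 3 alone 25 of 27, 15 of 28, 27 of 33, 7 of 7, 12 of 40 and 13 of 21 of their filtered genes were at least 1 higher, against 17.7% of all genes. Msmo1, a sterol oxidase, was the member among 22 cholesterol genes, at 2.02, 5.61 and 3.88 FPKM in sham, 11.1, 12.5 and 12.7 FPKM at day 3 and 8.16, 10.2 and 8.81 FPKM at day 7. The median of that list went from -0.46 at day 3 to 0.42 at day 7. The rule held Msmo1 at 1 or more on both days, so nothing is read from its distance to those medians. Annotated genes on the other strand overlap 62 of the higher and 21 of the lower genes, and genes on the same strand 38 and 6. Levels of those genes are uncertain, because the strand setting and the treatment of shared reads are not stated by the sources used here.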

How the data were processed

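Kidney RNA of 9 C57BL/6 mice was sequenced, 3 libraries a group, and the design text calls the 3 libraries biological repeats. Per the labels' protocols, TRIzol RNA went into a directional NEB kit and was sequenced on an Illumina HiSeq. The authors deposited FPKM for 55385 gene IDs per library, with 2 decimals. The submitters' processing notes name HISAT, StringTie, FastQC 0.10.1 and GRCm38, and settings, annotation release and strand handling were not given in the sources used here. Read depth is unknown, so a value of 0 means listed at 0 and no counting error is given.

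GENCODE M21 gave symbols for 55144 IDs, coordinates, and GC content and length of the longest transcript. Values were taken as log2(FPKM + 1), which understates folds of low genes. Genes at 1 FPKM or more in 3 of 9 libraries entered limma 3.58.1 (R 4.3.3, eBayes with trend, all 9 libraries, 3 groups), tested on simulated data first. Benjamini-Hochberg adjustment ran over all 13718 genes, with a threshold of 0.05. Errors of differences are SE from limma. GC content was removed per library with a natural spline (5 degrees of freedom) over the 13707 genes with a value. One entry of the rule, worded "Sacm1l-unrelated none", names no gene and dropped none.

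The members and the gene lists were chosen with earlier results of these data known, and role groups after the members were seen. Genes named by rule were, in each direction, the 15 largest by the smaller displacement without overlap with sham and whose highest group averaged 2 FPKM or more (annotated pseudogenes and immunoglobulin or T cell receptor segments left out), up to 5 with the largest day 7 against day 3 difference that passed the test, up to 3 members of each list, and the genes nearest the threshold. Results for 1 gene so named are left out here. Others were named after their values were seen. Alternatives were other pseudocounts, filters, scalings, GC and length corrections, medians, a larger threshold, robust variance, a replicate block, 6 libraries alone and leaving out each library. Leaving out libraries after GC correction was added after the data were seen.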

Additional observations from a re-analysis of the deposited data

Results flagged for a closer look

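These differences between day 7 and day 3 passed limma's threshold over all genes. They come from the libraries that chose the members, so they are descriptions and support nothing by themselves. Among the 219 genes 25 were higher and 49 were lower at day 7 than at day 3. Of the genes higher than sham on both days, Sacm1l (0.83) was further from sham at day 7. Trp53inp1 (-3.37), Spp1 (-3.33), Chil3 (-3.27), Pmaip1 (-3.02) and Mapk6 (-2.41) were nearer to it, in log2(FPKM + 1). Of the genes lower than sham on both days, Inmt (3.25), Hist2h2aa1 (3.21), Hsd11b2 (2.74), Guca2b (2.64) and Cd74 (1.87) were nearer to sham at day 7. The difference in Cd74 was no longer past the threshold without day 3 replicate 1 or without day 7 replicate 2.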

How the results depend on the processing

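With a pseudocount of 0.1 in place of 1, the rule found 553 genes higher and 96 lower on both days, in place of 163 and 56. Median-of-ratios scaling gave 96 and 115, quantile normalization gave 95 higher genes, and removal of the GC trend gave 50 and 16. A displacement of at least 1.5 left 19 and 5. Leaving out 1 library at a time gave 127 to 204 higher and 53 to 90 lower genes, the highest of the latter without sham replicate 3. After GC correction the same gave 45 to 88 higher and 17 to 37 lower genes, with 88 and 37 again without sham replicate 3, 27 lower genes without sham replicate 2 and 25 without day 7 replicate 3. The counts of members that differed between day 7 and day 3, 25 higher and 49 lower, ran from 21 to 29 and from 36 to 53 when libraries were left out.

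Replicate numbers did not pair the libraries, since correlations of the deviations of same-numbered libraries ran from -0.054 to 0.238. With the replicate number as a block 25 members were higher and 47 lower at day 7 than at day 3. In the genes named by rule no displacement changed sign under these settings. Timm29, named after its values were seen, did so without sham replicate 3. Over all settings, 30 calls of day 7 against day 3 were lost in 6 genes named by rule, which are Azgp1, Agt, Cd74, Herpud1, Rrm2 and Hnrnpu. FPKM without read counts gives no measure of depth, and with 3 libraries a group a single library can decide membership.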
